A study of Arabidopsis thaliana with 6 samples.

Results

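The photosystem genes of Arabidopsis thaliana encoded in the nucleus were examined in rosette leaves of plants grown in air with added nitric oxide (NO). A gene counted as a member where its symbol or a synonym named a subunit of photosystem I (PSAD to PSAP), a subunit or assembly protein of photosystem II (PSBO to PSBY, PSB27 and PSB28), or an antenna protein (LHCA1 to LHCA6, LHCB1 to LHCB7), and where a probe's transcript matched it. PSBS, whose name falls in the range PSBO to PSBY, was left out by rule. These criteria gave 48 genes of 25371 with a probe. They fell into 13 core genes of photosystem I, 6 of its antenna, 14 core genes of photosystem II and 15 of its antenna, and 134 probes covered them. By chromosome, 19 lay on chromosome 1, 10 on chromosome 2, 8 on chromosome 3, 7 on chromosome 4 and 4 on chromosome 5.

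Both groups were wild-type plants raised on soil with sand in fumigation chambers and harvested at 4 weeks, and RNA was taken from whole rosette leaves. The 3 ppm NO group received ambient air with 3 ppm NO gas mixed in, around the clock until harvest, and the ambient group received the same air without the addition. Each group had 3 one-colour Agilent arrays, from separate biological experiments per the series' design text, and the question was how leaf transcripts differ under the added gas. How much NO the ambient air itself held is not stated in the labels.

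Photosystem II takes electrons from water at a manganese cluster on the inner, lumenal side of the thylakoid membrane, and photosystem I passes electrons on to ferredoxin at the outer, stromal side. The reaction centre proteins at the heart of both are encoded in the plastid and were not analysed here, while the nucleus encodes the surrounding subunits and all light-harvesting antenna proteins, which bind chlorophyll and hand excitation energy to the cores. In leaves these transcripts are among the most abundant and respond to light, plastid signals and development.

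Each array carried 61657 gene spots, none of them saturated, with 68.5% to 72.0% well above background on the NO arrays and 65.2% to 66.8% on the ambient arrays. The 75th percentile of the processed signal was 715 to 1321 on the NO arrays and 830 to 876 on the ambient arrays, and levels below are log2 signals relative to that percentile of the same array, so that they compare arrays for 1 probe and not different probes. All 3 NO arrays lay on 1 slide with 1 scan time and all 3 ambient arrays on another, so slide, scan and treatment cannot be told apart for any value here. Of 10 probes for the E1A spike-in RNA, which is added to samples as a labelling control, 8 were brighter on every NO array than on every ambient array, by up to 38.1 times (lowest NO over highest ambient array), and the part of this difference between the hybridisations in the results was not tested. The mesophyll markers RBCS1A, RBCS2B, RCA and CA1 were well above background on all arrays of these leaf samples, while 4 of 5 root markers and 2 of 4 seed markers were above it on none.

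All 48 photosystem genes were well above background on all 6 arrays and were tested, and 45 were higher in 3 ppm NO at an adjusted p under 0.05 (limma, Benjamini-Hochberg over 18685 tested genes). Over all tested genes a call in either direction was made for 57.9% and a call of higher for 25.7%. At least 2-fold higher and past the threshold were 31 of the 48, against 5.00% of all tested genes. LHCB7 was the 1 member called lower, a call made for 32.2% of all genes, and LHCA5 and LHCB4.3 did not pass. The NO arrays lay wholly above the ambient arrays for 45 members, as they did for 29.0% of tested genes, and the groups overlapped for 2 members. The median log2 change was 1.10 over the photosystem genes, a 2.14-fold higher level, and -0.05 over all tested genes, whose 5th to 95th percentiles ran from -0.70 to 1.01. Bulk leaf RNA cannot tell more cells of a type apart from more of a transcript per cell.

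**Figure D1:**
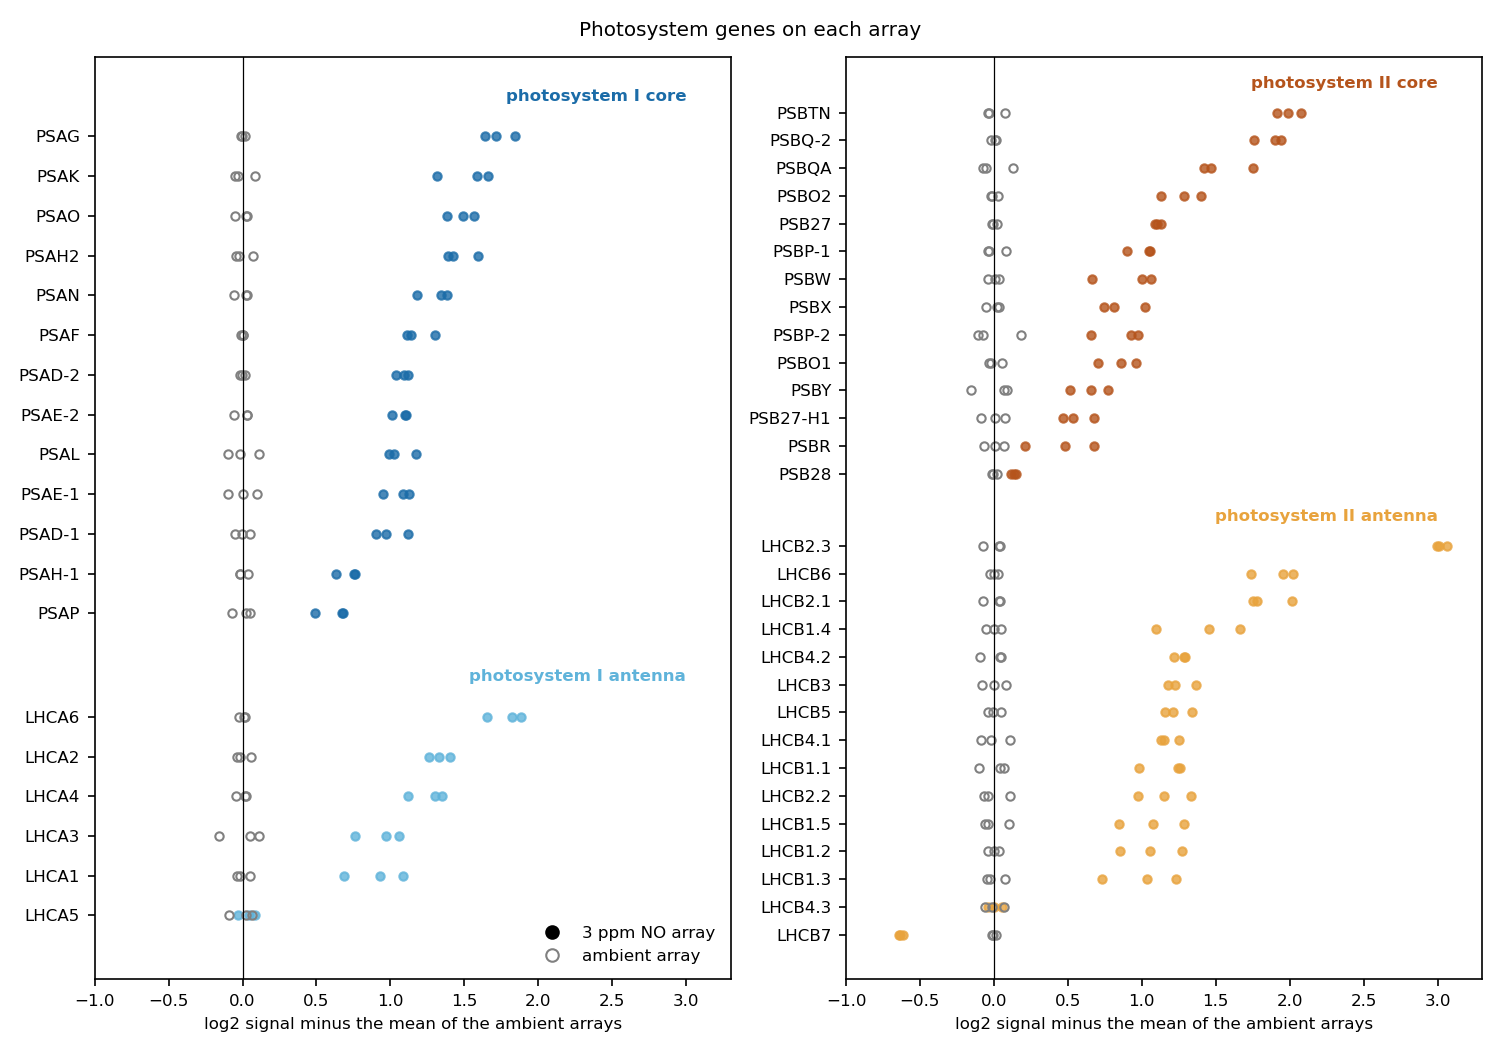
Level of each photosystem gene on each array, as log2 signal minus the mean of the 3 ambient arrays, with filled points for 3 ppm NO arrays and open points for ambient arrays, ordered by change within the 4 classes. The points of the groups stay apart for all genes except LHCA5 and LHCB4.3, and LHCB7 is the gene whose NO arrays lie below its ambient arrays.

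In the core of photosystem I all 13 genes rose, with log2 changes of 0.61 to 1.73 and a median of 1.08. PSAG, PSAK, PSAO and PSAH2 had the 4 largest rises. PSAG, a membrane subunit that helps to hold the antenna belt, had levels of 6.73, 6.53 and 6.60 on the NO arrays, against 4.90, 4.88 and 4.88 on the ambient arrays. This was 3.32-fold higher in NO (log2 change 1.73 ± 0.06 SE, n = 3 arrays each, adjusted p = 5.41e-06, limma), and the lowest NO array lay far above the highest ambient array. PSAK, a related membrane subunit on the antenna side, stood at 7.02, 6.67 and 6.94 on the NO arrays and at 5.32, 5.30 and 5.44 on the ambient arrays. Its log2 change was 1.52 ± 0.10 (SE, adjusted p = 4.31e-05, limma), again without overlap.

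The subunits on the side where mobile antenna of photosystem II docks were PSAO, PSAH and PSAL. PSAO rose by 1.48 on the log2 scale, PSAH2 by 1.47, PSAL by 1.06 and PSAH-1 by 0.71. PSAN and PSAF, which take part in docking plastocyanin at the lumenal face, rose by 1.30 and 1.18. The stromal subunits that dock ferredoxin, each encoded by a gene pair, moved within a narrow band: PSAD-2 by 1.08, PSAE-2 by 1.07, PSAE-1 by 1.05 and PSAD-1 by 1.00.

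The smallest change of the class was that of the gene matched through the synonym PSAP, whose symbol is PSI-P and whose product is also known as CURT1B, a protein that bends thylakoid membranes rather than a reaction centre subunit. Its levels were 5.60, 5.42 and 5.60 on the NO arrays and 4.95, 4.85 and 4.97 on the ambient arrays, without overlap. The log2 change was 0.61 ± 0.07 (SE, adjusted p = 0.000477, limma).

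Of the 6 photosystem I antenna genes 5 rose and LHCA5 did not pass, with a class median of 1.09. LHCA2, part of the belt of 4 proteins along the core, had levels of 5.45, 5.31 and 5.38 on the NO arrays and 4.03, 4.01 and 4.11 on the ambient arrays, a log2 change of 1.33 ± 0.06 (SE, adjusted p = 9.91e-06, limma). The other belt proteins rose by 1.26 (LHCA4), 0.93 (LHCA3) and 0.90 (LHCA1).

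LHCA5 and LHCA6 are minor antenna proteins that link photosystem I to the chloroplast NADH dehydrogenase-like complex, and the 2 genes showed the smallest and the largest change of the class. LHCA6 stood at 3.27, 3.05 and 3.21 on the NO arrays and at 1.41, 1.37 and 1.40 on the ambient arrays. This was 3.45-fold higher in NO (log2 change 1.79 ± 0.07 SE, adjusted p = 6.63e-06, limma). LHCA5 stood at 3.24, 3.13 and 3.20 on the NO arrays and at 3.06, 3.18 and 3.22 on the ambient arrays, so that the groups overlapped, and its log2 change was 0.03 ± 0.06 (SE, adjusted p = 0.671, limma). Each of these 2 genes was read by 1 probe.

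In the core of photosystem II all 14 genes were called higher, with a median of 0.88 and a range of 0.13 to 1.99. The largest change was that of PSBTN, a small protein of the photosystem encoded in the nucleus. Its levels were 5.82, 5.74 and 5.66 on the NO arrays and 3.71, 3.82 and 3.70 on the ambient arrays, 3.98-fold higher in NO (log2 change 1.99 ± 0.06 SE, adjusted p = 3.37e-06, limma). The small membrane subunits rose by 0.91 (PSBW), 0.86 (PSBX) and 0.65 (PSBY).

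The oxygen-evolving complex, the extrinsic proteins that shield the manganese cluster in the lumen, had 7 genes with a median log2 change of 1.00. PSBQ-2 was the gene of this complex with the largest change, at 6.29, 6.11 and 6.26 on the NO arrays and 4.36, 4.33 and 4.37 on the ambient arrays. Its level was 3.65-fold higher in NO (log2 change 1.87 ± 0.06 SE, adjusted p = 3.86e-06, limma), and the groups were far apart. PSBQA rose by 1.55, PSBO2 by 1.27, PSBP-1 by 1.00, PSBP-2 by 0.85 and PSBO1, the main form of the manganese-stabilising protein, by 0.84. Of the probes that stood for a member, that of PSBP-2 was the dimmest, at -3.59 to -3.27 on the NO arrays and -4.36 to -4.06 on the ambient arrays, and its log2 change was 0.35 with normexp background correction. PSBR, a subunit that helps to anchor PsbP, rose by 0.45 ± 0.12 (SE, adjusted p = 0.0154, limma), but the call was lost with cyclic loess normalization (0.20, adjusted p = 0.0640).

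The proteins that assist assembly and repair of photosystem II had the lowest median of the core, 0.56 over 3 genes. PSB27 rose by 1.11, and its homologue PSB27-H1, listed under the symbol LPA19 and needed for maturation of the D1 protein, rose by 0.56. PSB28 stood at 3.83, 3.82 and 3.80 on the NO arrays and at 3.67, 3.67 and 3.70 on the ambient arrays, apart by a small gap. Its log2 change of 0.13 ± 0.04 (SE, adjusted p = 0.0372, limma) kept its call in 4 of 17 other settings and lost it when any 1 array was left out (adjusted p 0.0653 to 0.0990), so 44 members were called higher in each of those fits.

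The photosystem II antenna held the member with the largest change, the member that fell and 1 that did not pass, and 13 of its 15 genes rose around a median of 1.18. LHCB2.3, which encodes a protein of the trimeric antenna complex LHCII, had levels of 2.82, 2.83 and 2.89 on the NO arrays and -0.25, -0.15 and -0.14 on the ambient arrays. It was 8.13-fold higher in NO (log2 change 3.02 ± 0.05 SE, adjusted p = 5.99e-07, limma), and its groups did not overlap.

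The other LHCII trimer genes rose by 1.85 (LHCB2.1), 1.40 (LHCB1.4), 1.25 (LHCB3), 1.16 (LHCB1.1), 1.15 (LHCB2.2), 1.07 (LHCB1.5), 1.06 (LHCB1.2) and 1.00 (LHCB1.3). For LHCB2.1 the mean of its probes, which takes in 1 that was above background on no array, gave 0.55 (adjusted p = 0.0410, limma, range over its settings 3.02e-06 to 0.0410). The RefSeq gene table lists LHCB1.1, LHCB1.2 and LHCB1.3 under the symbols CAB2, CAB3 and CAB1, and LHCB1.4 and LHCB1.5 under LHB1B1 and LHB1B2. In the gene order of TAIR10.1, LHCB1.2, LHCB1.1 and LHCB1.3 follow each other with 0 coding genes between them, and so do LHCB1.5 and LHCB1.4, and LHCB2.2 and LHCB2.1. The genes of LHCB1 and LHCB2 are close copies, and how far a probe of 1 copy also reads transcripts of another was not tested.

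The minor antenna proteins, single chlorophyll proteins that bridge the trimers and the core, had a median of 1.24 over 5 genes. LHCB6 rose most, with 7.73, 7.45 and 7.67 on the NO arrays and 5.74, 5.69 and 5.71 on the ambient arrays, 3.74-fold higher in NO (log2 change 1.90 ± 0.08 SE, adjusted p = 9.08e-06, limma). LHCB4.2, LHCB5 and LHCB4.1 followed with 1.27, 1.24 and 1.18. LHCB4.3, a further copy of the LHCB4 gene, stood at 4.94, 4.84 and 4.89 on the NO arrays and at 4.83, 4.95 and 4.87 on the ambient arrays, which overlapped, and had a log2 change of 0.00 ± 0.06 (SE, adjusted p = 0.959, limma). Under quantile normalization it was called lower, at -0.24 (adjusted p = 0.00754, range over its settings 0.00754 to 0.985).

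LHCB7, a little-studied member of the antenna family, went the other way from the rest. Its levels were 2.90, 2.88 and 2.88 on the NO arrays and 3.51, 3.51 and 3.53 on the ambient arrays, with no overlap and little spread in either group. Its log2 change was -0.63 ± 0.04 (SE, adjusted p = 5.53e-05, limma), a level 1.55-fold lower in NO, and a second probe of the gene was also called lower, at -0.57.

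Between the photosystems and between core and antenna the distributions of change lay over each other. Photosystem I had a median log2 change of 1.08 with 18 of 19 genes higher, and photosystem II 1.11 with 27 of 29 higher and 1 lower. Antenna genes had a median of 1.18 with 18 of 21 higher, and core genes 1.06 with 27 of 27 higher. The 3 members that did not rise were all antenna genes, and the members are not replicates of a condition, so these differences between classes carry no test. Quantile normalization brought the median of all members to 0.72, with 0.86 for the photosystem I core, 0.60 for its antenna, 0.54 for the photosystem II core and 0.74 for its antenna, and it left 15 members at least 2-fold higher. The photosystem II core had the lowest class median both as reported and under quantile normalization, while the order of the other classes moved with the scaling. Each class median stayed above that of all genes, which was -0.07 under quantile normalization.

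**Figure D2:**
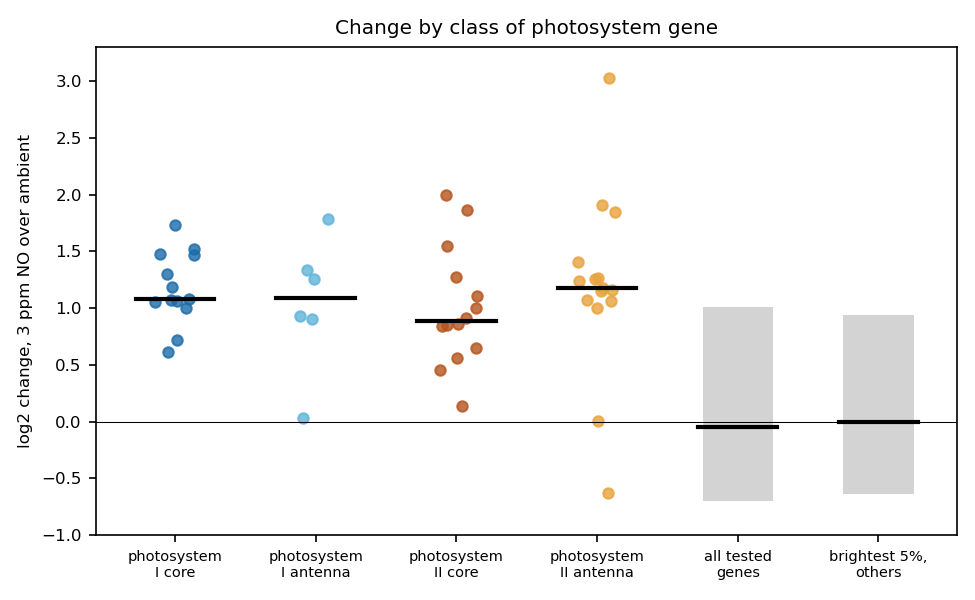
Log2 change, 3 ppm NO over ambient, of each photosystem gene (points) with the class median (black line), beside all tested genes and the other genes among the brightest 5% (grey bars from the 5th to the 95th percentile, black line at the median). The class medians lie between 0.88 and 1.18, near or above the upper end of the grey bars.

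**Figure D3:**
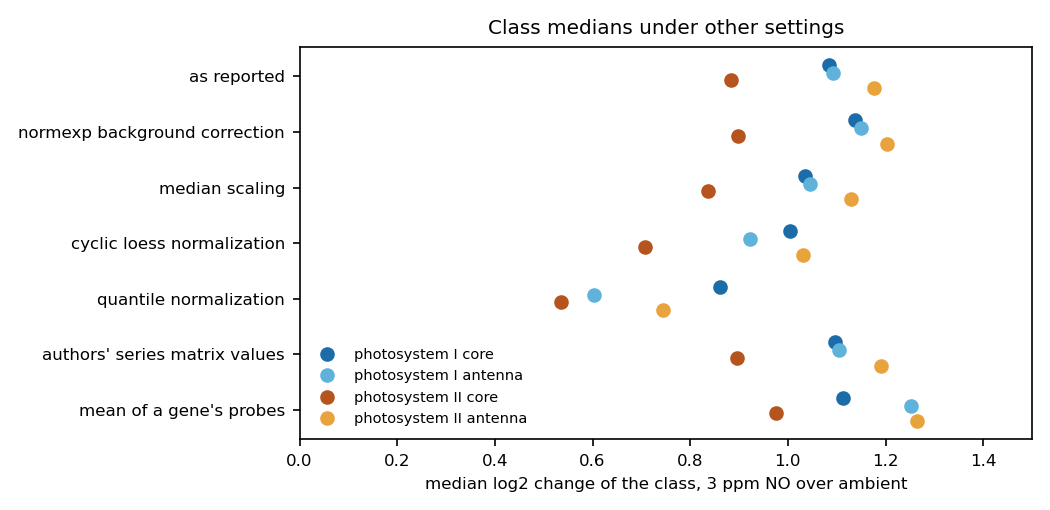
Median log2 change of each class, 3 ppm NO over ambient, as reported and under 6 other settings. The photosystem II core has the lowest of the 4 medians in each setting drawn, and quantile normalization gives the lowest value of each class.

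Photosystem transcripts are bright on the array, and 39 of the 48 members lay among the brightest 5% of tested genes. Among the other 896 genes of that range, chosen as a background after the values were seen, 34.2% were called higher and 4.58% were at least 2-fold higher, and the median log2 change was -0.00. At the brightest signals the other tested probes moved up. Their median log2 change was 0.34 (95th percentile 1.32) over 71 probes at a mean log2 signal of 6.48. It was 0.40 (95th percentile 1.28) over 35 probes at 7.52, so the whole 5% is a low background for the brightest members. Above the 95th percentile of all log2 changes lay 30 of the 48 members.

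The 3 NO arrays did not sit at the same height above the ambient ones. NO array 1 was the highest of the 3 for 42 of 48 members and NO array 2 the lowest for 36. Measured from the ambient mean, the median over the members was 1.25 on NO array 1, 1.02 on NO array 2 and 1.10 on NO array 3, against -0.02, -0.01 and 0.02 on the ambient arrays. NO array 2 also had the highest 75th percentile of signal, and the part of this in its lower values was not tested.

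Most members were read by several probes. Of 131 member probes tested on their own, 127 were called higher, against 26.0% of all 26170 tested probes, both probes of LHCB7 were lower, and the probes of LHCA5 and LHCB4.3 did not pass. No member had tested probes with different calls. The size of the change varied more: the 9 probes of LHCB1.3 gave log2 changes of 1.00 to 2.87, the 4 of LHCB2.2 gave 1.15 to 2.51, and the 2 tested probes of LHCB1.4 gave 1.40 and 3.25. The 2 probes of LHCB2.3 gave 3.02 and 2.55. Of 3 probes above background on no array, 2 were assigned to LHCB1.4 and 1 to LHCB2.1.

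A gene was represented here by its brightest probe, and for 29 of the 34 members with at least 2 tested probes (85.3%) that probe changed less than the median of the others. The same held for 847 of 1479 other genes called higher with several tested probes (57.3%), a comparison added after the values were seen and not tested. Taking the mean of a gene's probes gave class medians of 1.25 for the photosystem I antenna and 1.27 for the photosystem II antenna, above the 1.09 and 1.18 of the brightest probes.

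**Figure D4:**
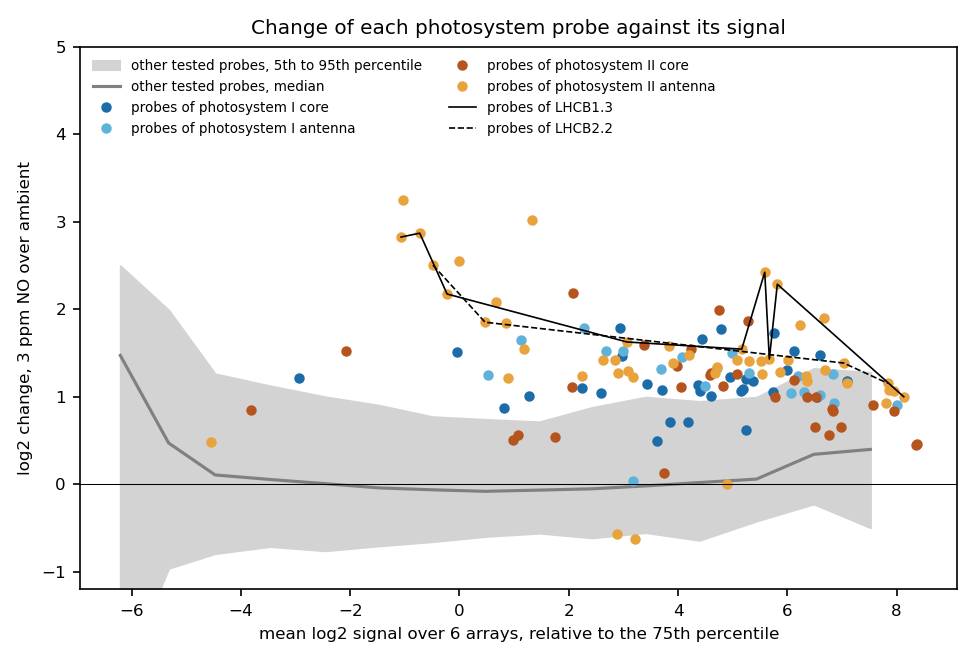
Log2 change, 3 ppm NO over ambient, of each tested photosystem probe against its mean log2 signal over the 6 arrays, relative to the 75th percentile, with lines joining the probes of LHCB1.3 and of LHCB2.2; the grey band is the 5th to 95th percentile of the other tested probes in bins 1 log2 unit wide and runs past the lower edge of the plot at the dimmest signals. The brightest probe of LHCB1.3 lies at a change of 1.00 and dimmer probes of the same gene reach 2.87.

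Several photosystem proteins are encoded by a pair of genes, and PSB27 has the homologue PSB27-H1. With that pair of homologues included, 7 pairs were compared by the difference of their log2 levels on each array. For 4 pairs the difference did not overlap between NO and ambient arrays. No such share over other pairs of genes is given here to set beside this count, so the count is a description only. The 57.9% of all single genes tested that were called is another measure, of genes and not of pairs. The difference was 0.75 ± 0.08 for PSAH2 over PSAH-1, 0.55 ± 0.08 for PSB27 over PSB27-H1, 0.43 ± 0.10 for PSBO2 over PSBO1 and 0.32 ± 0.11 for PSBQ-2 over PSBQA (difference of log2 changes ± SE, n = 3 arrays each). Each had a two-sided exact permutation p = 0.1, the smallest that 3 arrays against 3 can give, and 0.175 after adjustment over the 7 pairs, so no pair could pass. The 3 other pairs overlapped, with differences of 0.15 for PSBP-1 over PSBP-2, 0.09 for PSAD-2 over PSAD-1 and 0.02 for PSAE-2 over PSAE-1 (exact permutation p = 0.5, 0.3 and 0.9). The PSBP pair includes the dim probe of PSBP-2.

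Genes related to the photosystems were taken from 8 lists chosen for their role. The lists covered electron transport and ATP synthesis, and also assembly, antenna phosphorylation, relatives of photosystem proteins and regulators. Of 48 tested genes in these lists, 26 rose and 10 fell, 12 did not reach the threshold, and their median log2 change was 0.23, against 1.10 over the photosystem genes. This pooled median mixed unlike lists, whose own medians ran from -0.94 (early light-induced and one-helix proteins) to 1.05 (PsbP-like and PsbQ-like proteins). It was 0.93 for cytochrome b6f and plastocyanin, 0.54 for ferredoxin and its reductase, and 0.52 for the chloroplast ATP synthase. Over all tested genes 25.7% were called higher and 32.2% lower. Of the 26 higher calls 18 were kept in all 17 other settings, and of the 10 lower calls 5. The count of falls varied with the arrays and the scaling, and was 6 without NO array 2 or without ambient array 3, and 16 under quantile normalization. The carriers between the photosystems rose, 4 of 4. The plastocyanins PETE1 and PETE2, mobile copper proteins that feed photosystem I, rose by 1.28 and 1.20, and the cytochrome complex genes AT2G26500 and PETC (the Rieske iron-sulfur protein) by 0.66 and 0.33. PETC was called lower, at -0.23, under quantile normalization, and kept its call in 15 of 17 other settings.

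On the acceptor side of photosystem I, 3 of 5 genes rose, 1 fell and 1 did not pass, where 25.7% of all tested genes were higher and 32.2% lower. The leaf ferredoxin FD2 and the reductase FNR2, which passes electrons to NADP, rose by 0.75 and 0.65, and FNR1 by 0.54. FD3, the ferredoxin of non-photosynthetic tissue, fell by 0.24 on the log2 scale, a call kept in 12 of 17 other settings and lost without ambient array 1 or 3 or NO array 2 (adjusted p up to 0.0547, limma). FD1 had a change of 0.00, and was called lower, at -0.19, under quantile normalization (adjusted p = 0.0142, limma). In the chloroplast ATP synthase 3 of 4 genes rose, led by ATPD with 0.99 and ATPC1 with 0.77, and ATPC2, a second gene for the gamma subunit, fell by 0.37. PDE334 rose by 0.28 but was called lower, at -0.22, under quantile normalization.

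Relatives of the oxygen-evolving proteins rose, 5 of 5, with a median of 1.05. PPL2 and PQL1, now named PnsL1 and PnsL2 as lumenal subunits of the chloroplast NADH dehydrogenase-like complex, rose by 1.63 and 1.10. Factors of photosystem assembly and antenna import had a median of 0.16, with 5 of 12 higher, 2 lower and 5 not passed, against 25.7% higher and 32.2% lower over all tested genes. HCF136, an assembly factor of photosystem II, rose by 0.50 and kept its call in all 17 other settings. The other higher calls were kept in 12 (LIL3), 11 (CAO), 10 (THF1) and 9 (ALB3) of 17, and each was lost when any of 3 or 4 single arrays was left out (adjusted p up to 0.122, limma). FTSY, the receptor of the plastid signal recognition particle that inserts antenna proteins, fell by 0.39, a call kept in 12 of 17 settings and lost without ambient array 2 or 3 (adjusted p up to 0.112). AT1G22700 fell by 0.15, a call kept in 9 of 17 and lost without ambient array 1 or 3 or NO array 2 or 3 (adjusted p up to 0.0849). Of 7 genes of cyclic electron flow and antenna phosphorylation, 5 did not pass, where 57.9% of all tested genes were called. Of those 5, TAP38 (-0.16), PGR5 (-0.17) and STN7 (-0.14) were called lower under quantile normalization (adjusted p 0.0244 to 0.0345, limma). The calls of TAP38 and PBCP also changed with normexp background correction. PGRL1A rose by 0.49, but did not pass under quantile normalization (0.17, adjusted p = 0.168, limma). The photosystem II kinase STN8 fell by 0.19, a call kept in 9 of 17 other settings and lost without ambient array 1 or 2 or NO array 1 or 2 (adjusted p up to 0.0954).

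Early light-induced proteins are stress-induced relatives of the antenna proteins that are thought to bind free chlorophyll, and one-helix proteins are further relatives. Of the 4 genes in this list 3 fell and 1 rose, where 32.2% of all tested genes were lower and 25.7% higher. ELIP1 had levels of 7.22, 6.94 and 7.17 on the NO arrays and 8.74, 8.84 and 9.00 on the ambient arrays, 3.36-fold lower in NO (log2 change -1.75 ± 0.10 SE, adjusted p = 2.70e-05, limma). ELIP2 fell by 1.63 on the log2 scale, and the 2 genes lay at the other end of the range from the antenna genes. OHP2 fell by 0.25 and OHP, a one-helix protein, rose by 0.51. The call of OHP2 was lost with the mean of its probes, at -0.03, and without ambient array 2 or 3 or NO array 2 (adjusted p up to 0.0547, limma), which left 2 of the 4 genes lower.

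Among 7 tested regulators of photosystem genes, 4 rose, 2 fell and 1 did not pass, where 25.7% of all tested genes were higher and 32.2% lower. The transcription factor genes GLK1 and GLK2, activators of antenna genes, rose by 0.34 and 0.45, and the call of GLK1 was lost in 1 of 17 other settings, the replicate block by source-name number. GUN5 and GUN4, which act in chlorophyll synthesis and plastid-to-nucleus signalling, rose by 0.54 and 0.35. CGA1, a GATA factor that promotes chloroplast development, stood at -1.38, -1.66 and -1.61 on the NO arrays and at -0.36, -0.24 and -0.19 on the ambient arrays, a log2 change of -1.28 ± 0.09 (SE, adjusted p = 5.56e-05, limma). HY5, a light-signalling factor, fell by 0.77. The largest change of a regulator was thus a fall, and a link between the regulators and the change of the photosystem genes was not tested.

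**Figure D5:**
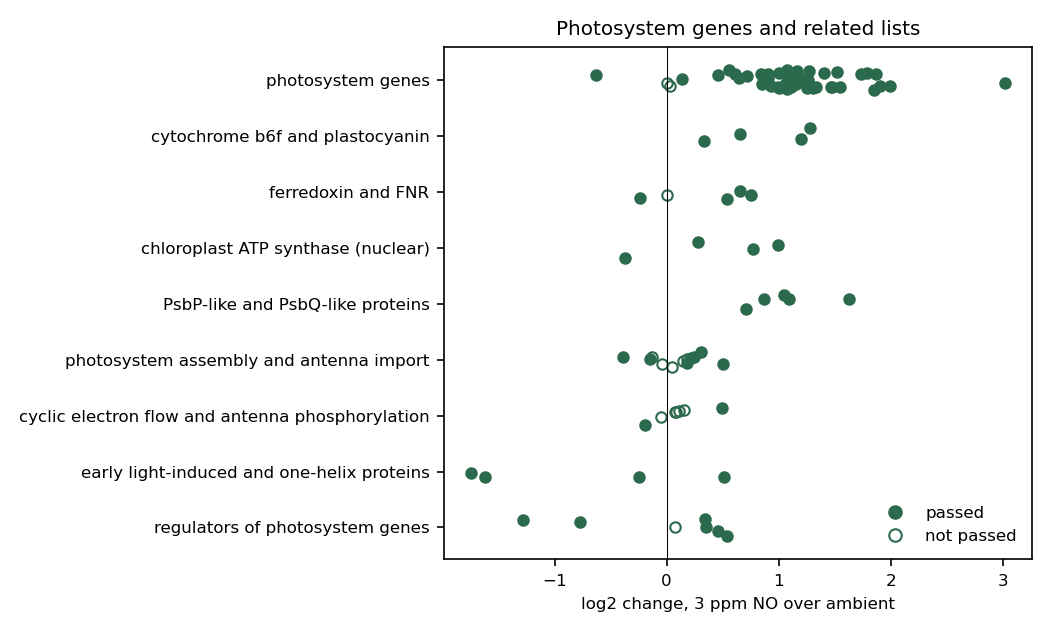
Log2 change, 3 ppm NO over ambient, of the photosystem genes and of each tested gene in 8 related lists; filled points passed an adjusted p of 0.05 (limma) and open points did not. Carriers and PsbP-like and PsbQ-like proteins lie to the right of 0, and ELIP1, ELIP2, CGA1 and HY5 lie farthest to the left.

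Many cell type markers moved with the treatment too, where 25.7% of all tested genes were called higher and 32.2% lower. All 4 mesophyll markers rose, and their summed level was 878 to 1096 times the 75th percentile signal on the NO arrays and 496 to 531 times on the ambient arrays, with CA1, a carbonic anhydrase, 11.9-fold higher in NO. These markers are themselves genes of photosynthesis, so their level is no separate measure of the share of mesophyll cells. All 4 guard cell markers fell, with a summed level of 4.00 to 4.16 on the NO arrays and 5.45 to 5.60 on the ambient arrays. Vascular markers were split, 2 higher (IRX3 by 1.00, XCP1 by 0.75) and 2 lower (SUC2 at -0.17, APL at -0.32). Their sums were 15.3 to 15.6 on the NO arrays and 14.9 to 15.9 on the ambient arrays. Such a sum mostly follows its brightest probe, here that of SUC2. Epidermal sums overlapped, at 18.5 to 19.8 on the NO arrays and 19.1 to 19.4 on the ambient arrays, with 2 of 3 genes higher. Of the flower markers 2 of 4 were higher at a low summed level of 0.689 to 0.764 on the NO arrays and 0.575 to 0.700 on the ambient arrays, and the meristem marker STM rose by 0.50. The meristem marker WUS, well above background on no ambient array, did not pass (1.21, adjusted p = 0.0693, limma), and CLV3 was not tested. CRU3, the only seed marker tested, was dim and fell by 0.65 on the log2 scale. The part of cell type proportions in the change of the photosystem genes was not tested.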

How the data were processed

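Spot intensities were taken from the scanner files deposited by the authors. Their processed signal is linear and already corrected for background by the scanner software, Agilent Feature Extraction (10.7.3.1 per the file headers, 10.5 per the submitters' processing notes). The authors' deposited matrix gives log2 values, which followed the scanner values scaled to the 75th percentile and centred on each probe's median (Pearson r over 0.999 across probes on each array, with column medians of 0.02, -0.07 and -0.03 for the NO arrays and 0.03, 0.04 and -0.02 for the ambient arrays), and served as an alternative. Per the labels' protocols, 10 ng of total RNA went into each Cy3 labelling.

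Here log2 of the processed signal minus the 75th percentile of the array was used, without control spots and spots marked as outliers (6 to 18 gene spots on the NO arrays, 5 to 16 on the ambient arrays), and spots of a probe were averaged. Of 43603 probes, 34267 matched a locus through their transcript accession in the RefSeq gene table of TAIR10.1, and 9336 did not. No coordinate is given, since the file headers name another build. The probe with the highest mean log2 signal stood for its gene, and a gene entered the test if either group had this probe well above background on each of its 3 arrays. A linear model with moderated variance (limma 3.58.1, R 4.3.3; lmFit, eBayes) gave two-sided p-values for NO over ambient, which were adjusted over all tested genes by the Benjamini-Hochberg method and called under 0.05. The fit was tested on simulated data. Its recovery of the smaller simulated shift fell short of the limit first set, and that limit was lowered after the outcome was seen. With 3 arrays a group, precision is limited by their number.

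The members, the lists and the tests were chosen with earlier results of these data known. By rule, every member was named with its change. Levels on each array were given for the 2 largest and the smallest absolute changes of each class and for members that fell or did not pass. Of each list, the 2 largest changes and the genes against its majority were named. Other array levels and further list genes were added after their values were seen. Of 12 gene pairs computed at the start, 5 that had been picked for their difference were dropped after their values were seen, leaving 7, and the dropped genes are described without a test. The comparisons with the brightest 5% of genes and with the brightest probe of a gene were also added then.

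The alternatives were normexp background correction (offset 50, on median signals, since the files used here hold no mean signal column), quantile, median and cyclic loess scaling, the series matrix, 2 other filters on dim probes, the mean of a gene's probes, each probe alone, outlier spots kept, 2 replicate blocks and leaving out each array. The titles number both groups 1 to 3, and the source names number the NO arrays otherwise. Plastid-encoded photosystem genes and promoter sequences were not analysed here.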

Additional observations from a re-analysis of the deposited data

How the results depend on the processing

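Of 48 photosystem genes, 44 kept their call in all 17 other settings and 42 were called higher in each. Quantile normalization gave the lowest class medians: it gave 2 photosystem genes lower, 16 genes of the related lists lower, and median log2 changes of 0.72 over all members, 0.86 (photosystem I core), 0.60 (photosystem I antenna), 0.54 (photosystem II core) and 0.74 (photosystem II antenna). It turned LHCB4.3 to -0.24 and ended the call of PSBY (0.08, adjusted p = 0.391, limma). Cyclic loess gave class medians of 1.00, 0.92, 0.71 and 1.03 in the same order, and the mean of a gene's probes gave 1.25 and 1.27 for the antennas of photosystems I and II. The cause of these shifts was not tested.

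Same-numbered arrays of the groups did not deviate together (r of -0.08, -0.05 and 0.05 by title number, 0.02 and -0.12 by source-name number, across 18673 genes), so the numbers were not taken as pairs. The replicate block by source-name number left 7040 genes called over all genes, against 10814, and 19 genes of the related lists higher, against 26. It ended the calls of PSBR (0.41, adjusted p = 0.105, limma) and PSB28 (0.14, adjusted p = 0.240). In that block ambient array 1 and NO array 3 had no partner, so its changes came from NO arrays 1 and 2 and ambient arrays 2 and 3 alone. The block by title number gave 10014 genes called and ended the call of PSB28 (0.13, adjusted p = 0.0876, limma).

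Leaving out each array in turn gave 9447 to 9713 genes called, 4299 to 4467 of them higher, 44 photosystem genes higher and 1 lower. In the related lists 22 to 26 genes were higher and 6 to 9 lower. The median over all members ran from 1.06 to 1.17, and by class from 1.07 to 1.12 (photosystem I core, 13 higher), 1.04 to 1.17 (photosystem I antenna, 5 higher), 0.87 to 0.97 (photosystem II core, 13 higher) and 1.14 to 1.25 (photosystem II antenna, 13 higher). With each probe tested alone, 45 members were higher and 1 lower over all their tested probes. The chosen probes of all members were well above background on every array, so the number of arrays and the single slide of each group limit these values.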
